A study of Mus musculus with 11 samples.

Results

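The heat shock chaperones described here are 10 genes chosen by name, Hspa1a, Hspa1b, Hspa8, Hsph1, Dnajb1, Hsp90aa1, Hsp90ab1, Hspb1, Hspd1 and Hspe1. They are 10 of the 34547 mouse genes with a matched transcript, and all 10 were among the 21200 genes whose counts were high enough to be tested. RNA was sequenced from podocytes, the epithelial cells that cover the glomerular capillaries of the kidney, in 11 libraries. The cells were sorted as live cells positive for mTomato, a fluorophore that the podocytes of every mouse used carry together with the iCre recombinase, which is active in these cells. All mice were on a C57BL/6 background, which the study's methods give as C57BL/6N. MyD88pko mice carry in addition a floxed Myd88 gene, which the recombinase deletes in podocytes, and PodTOM mice (labelled WT) have the intact gene and the same Cre and fluorophore. Nephrotoxic nephritis (NTN), an antibody-mediated glomerulonephritis, was induced in males of 8 to 16 weeks by injecting sheep nephrotoxic serum into the tail vein on 2 days (a dose of 9 µl per g), and cells were taken on day 5. The groups were MyD88pko with NTN (3 libraries), MyD88pko untreated (2), PodTOM with NTN (3) and PodTOM untreated (3). The age of the untreated mice is given only as a wide range over all animals studied and the number of mice per library is not given in the sources used here, so the p-values refer to variation among the libraries as sequenced, which may be technical.

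Heat shock proteins bind unfolded or partly folded proteins and help them to fold, to stay soluble or to be degraded. HSP70 proteins hold and release their clients in a cycle driven by ATP, J-domain proteins such as DNAJB1 bring clients and start the cycle, and HSP110 proteins exchange the nucleotide. HSP90 acts later, on signalling proteins in particular, small heat shock proteins bind clients without ATP, and HSP60 with its lid HSP10 folds proteins inside mitochondria. Several of these genes are induced by heat shock factor HSF1, which binds heat shock elements, inverted repeats of GAA and TTC, near the start of transcription.

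Estimated counts summed to 20650133 to 32764201 per library in nephritic MyD88pko podocytes and 15784354 to 15893635 in untreated ones, and to 20080140 to 26502298 in nephritic PodTOM podocytes and 14563271 to 19483013 in untreated ones. Levels are given as CPM, counts relative to the library total after scaling by TMM. Myd88 averaged 0.474 ± 0.0105 CPM in nephritic MyD88pko podocytes against 10.9 ± 3.09 in nephritic PodTOM podocytes (SD, n = 3 each), and 0.588 ± 0.548 in untreated MyD88pko podocytes (n = 2) against 7.22 ± 0.728 in untreated PodTOM podocytes (n = 3), as the labels say. The summed level of 15 podocyte markers was 33456 to 48158 CPM in nephritic MyD88pko libraries against 51678 to 55709 in untreated ones, and 34111 to 39295 in nephritic PodTOM libraries against 49979 to 64445 in untreated ones. Markers of other cells were low, and some lists moved with NTN. Of 5 neutrophil markers 0 were called in either genotype. Parietal epithelial markers summed to 72.3 to 113 CPM in nephritic against 35.4 to 43.1 CPM in untreated MyD88pko libraries. In PodTOM libraries they summed to 91.0 to 112 against 66.5 to 85.0 CPM. Of 5 tested, 1 was higher in each genotype (20%, against 11.3% of all genes tested in MyD88pko and 15.9% in PodTOM podocytes). The 12 markers of glomerular endothelium tested summed to 165 to 186 CPM in nephritic against 130.2 to 169 CPM in untreated MyD88pko libraries (2 higher, 0 lower by edgeR), and to 175 to 307 CPM in nephritic against 128 to 151 CPM in untreated PodTOM libraries (7 higher, 0 lower). Of 11 mesangial markers 0 were called in MyD88pko and 4 were higher in PodTOM podocytes, where they summed to 138 to 246 CPM with NTN against 118 to 189.6 CPM untreated. Of 13 macrophage markers 2 were higher and 1 lower in MyD88pko and 4 higher and 1 lower in PodTOM podocytes. Their sums in NTN overlapped those untreated. They were 75.8 to 95.3 against 81.9 to 101 CPM in MyD88pko and 90.9 to 109 against 88.2 to 104 CPM in PodTOM libraries. These sums weigh Csf1r heavily, the marker that was lower (14.8 against 38.3 CPM in MyD88pko, 25.7 against 43.9 CPM in PodTOM podocytes). The median log2 fold change of the macrophage list was 1.22 in MyD88pko and 2.27 in PodTOM podocytes, against 0.16 and 0.19 over all genes tested. In untreated MyD88pko libraries 5 of the 13 had no counts. The shares higher in MyD88pko podocytes, 16.7% of endothelial and 15.4% of macrophage markers, stand beside 11.3% of all genes tested. In PodTOM podocytes 58.3% of endothelial, 36.4% of mesangial and 30.8% of macrophage markers were higher, against 15.9%. Lower were 7.69% of macrophage markers in each genotype, against 8.22% and 9.93%. Lymphocyte markers summed to 17.9 to 52.8 CPM in nephritic against 17.5 to 21.7 CPM in untreated MyD88pko libraries, and to 32.1 to 42.5 CPM in nephritic against 12.9 to 19.5 CPM in untreated PodTOM libraries. Of 7 tested, 1 was higher in MyD88pko (14.3%, against 11.3% of all genes tested) and 2 in PodTOM podocytes (28.6%, against 15.9%). Of 11 proximal tubule markers, 1 was higher and 1 lower in MyD88pko podocytes (9.09% each, against 11.3% and 8.22%). In PodTOM podocytes 0 of these 11 were called. The part of other cells in the chaperone levels was not tested. Summed signal over 549 vomeronasal receptor genes, which podocytes are not known to use, was 130.5 to 474.7 CPM in the 6 nephritic libraries and 60.7 to 91.2 CPM in the 5 untreated ones. The vomeronasal values, here and below, are relative to library totals without scaling by TMM. Genotype coincides with the prefix of the library titles, so the genotypes cannot be told apart from whatever else that prefix marks.

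In NTN the chaperones did not move as a block. Dnajb1 rose 7.16-fold in MyD88pko and 6.55-fold in PodTOM podocytes. Hspa1a, Hspd1 and Hsp90aa1 fell in PodTOM podocytes, while Hspe1 and Hspb1 rose in MyD88pko podocytes. In MyD88pko podocytes 3 of 10 genes were higher and 0 lower in NTN at an adjusted p under 0.05 (edgeR's quasi-likelihood test with Benjamini-Hochberg adjustment over all genes), where 11.3% of all genes tested were higher and 8.22% lower (19.5% in either direction). In PodTOM podocytes 1 of 10 was higher and 3 were lower, where 15.9% of all genes tested were higher and 9.93% lower (25.9% in either direction). Without overlap between the libraries of the groups, 3 members were higher and 1 lower in nephritic MyD88pko podocytes (29.0% and 22.5% of all genes tested), and 1 was higher and 4 were lower in nephritic PodTOM podocytes (26.8% and 16.0% of all genes tested). The median log2 fold change of the 10 genes was -0.11 in MyD88pko podocytes, against 0.16 over all genes tested, and -0.53 in PodTOM podocytes, against 0.19 over all genes tested. The calls other than Dnajb1 depend on single libraries, as given beside each gene.

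**Figure D1:**
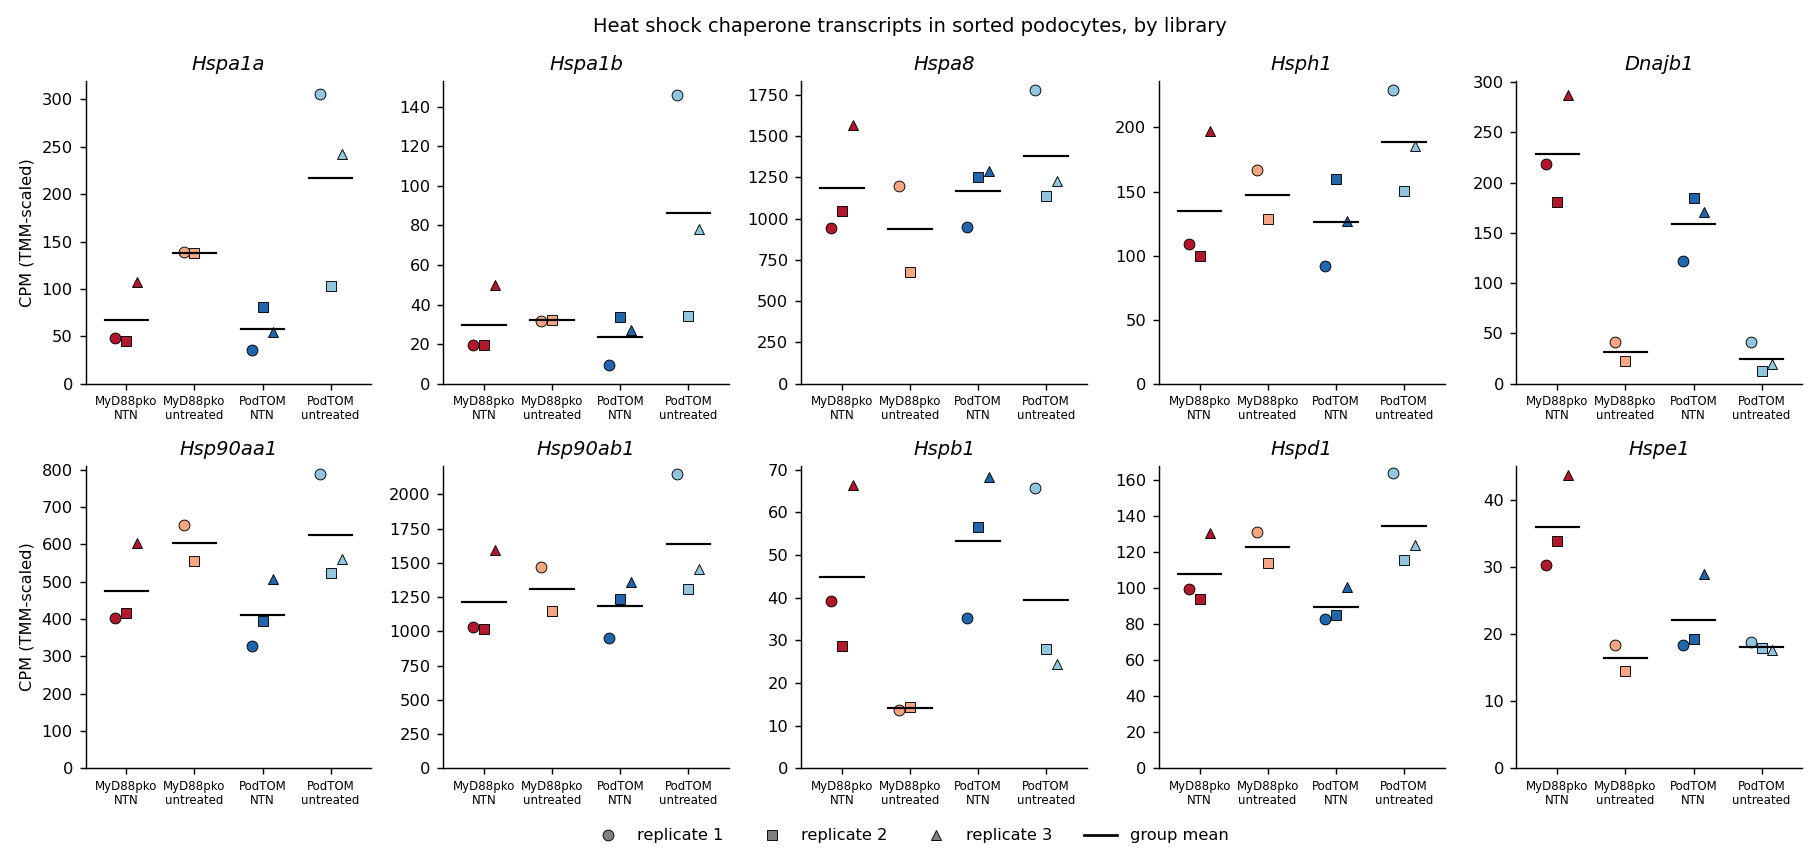
CPM of each chaperone gene (vertical axes, linear from 0) in the 11 libraries, by group, with 1 marker shape per replicate number and a line at the group mean. Dnajb1 in the 6 nephritic libraries lies between 122 and 287 CPM and above every untreated library, and untreated PodTOM replicate 1 is the highest of its group in all 10 panels.

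**Figure D2:**
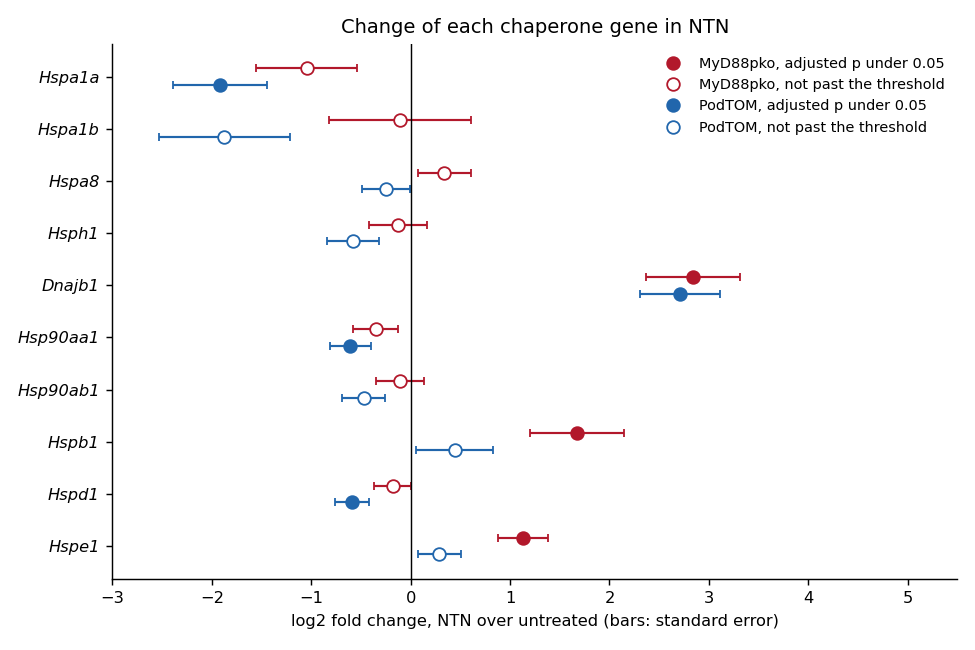
Log2 fold change of each gene, NTN over untreated, in MyD88pko and PodTOM podocytes, with standard errors as bars and filled points for an adjusted p under 0.05. Dnajb1 stands at 2.84 and 2.71, and Hspa1a at -1.05 and -1.92.

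Dnajb1 encodes the J-domain partner of cytosolic HSP70. It had 218, 181 and 287 CPM in nephritic MyD88pko libraries against 41.0 and 22.8 CPM in untreated ones. In PodTOM podocytes it had 122, 185 and 171 CPM with NTN against 41.0, 12.2 and 20.1 CPM untreated. The lowest nephritic library (122 CPM) thus lay well above the highest untreated ones (41.0 CPM). The log2 fold change was 2.84 ± 0.48 (SE) in MyD88pko podocytes (7.16-fold, adjusted p = 0.00248, edgeR) and 2.71 ± 0.40 in PodTOM podocytes (6.55-fold, adjusted p = 0.000927, edgeR). It passed the threshold under every alternative run and without each library in turn, with adjusted p of at most 0.0472 in MyD88pko and 0.0108 in PodTOM podocytes. When an untreated MyD88pko library was left out, the other stood alone for its group. On the TPM scale, which divides by length, Dnajb1 had the lowest mean of the 10 genes in untreated podocytes (21.2 ± 8.53 TPM in MyD88pko, n = 2, where its range overlapped that of Hspa1b just above it, and 15.8 ± 8.57 in PodTOM, n = 3). In NTN it stood at rank 4 of 10 in MyD88pko podocytes (148 ± 18.6 TPM, n = 3), where its range overlapped that of Hsph1 just below it. In PodTOM podocytes with NTN it stood at rank 6 (89.3 ± 13.4 TPM, n = 3), where its range overlapped that of Hsph1 just above it.

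Of the 2 annotated transcripts of Dnajb1, 1 passed the test in NTN. The gene runs from 83608193 to 83612653 on the plus strand of chromosome 8 (GRCm38). Dnajb1-201 has 3 exons and a reading frame of 340 codons, of which 211 bases lie in exon 1. Dnajb1-202 starts in intron 1 of Dnajb1-201, at 83608553, which is 11 bases past the last base of exon 1, and its own exon 1 ends at 83608760. Exons 2 and 3, with 2646 bases, are shared. The annotated coding sequence of Dnajb1-202 begins in exon 2, at 83609903, in the frame of Dnajb1-201 and at its codon 101, so that it holds 240 codons and lacks the J domain, which is at the start of the protein. The first 60 coding bases of each are shown to make this difference visible, with the start codon in capitals:
Dnajb1-201: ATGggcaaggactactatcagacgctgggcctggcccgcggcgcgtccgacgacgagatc
Dnajb1-202: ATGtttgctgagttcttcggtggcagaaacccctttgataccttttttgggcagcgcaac

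Dnajb1-202 had 219, 185 and 268 CPM in nephritic MyD88pko libraries against 9.19 and 16.2 CPM in untreated ones. In PodTOM podocytes it had 107, 169.7 and 131 CPM with NTN against 24.3, 4.50 and 6.76 CPM untreated. No nephritic library overlapped an untreated one. The log2 fold change was 4.14 ± 0.71 in MyD88pko (adjusted p = 0.0113) and 3.53 ± 0.58 in PodTOM podocytes (adjusted p = 0.00900), by the edgeR test over 58207 transcripts, of which 2.6% were higher in MyD88pko and 3.09% in PodTOM podocytes. Dnajb1-201 had 25.7, 16.0 and 31.6 CPM in nephritic MyD88pko libraries against 29.2 and 5.25 CPM untreated, and 20.0, 19.0 and 34.6 CPM in nephritic PodTOM libraries against 14.9, 7.05 and 12.3 CPM untreated. The nephritic and untreated libraries overlapped in MyD88pko and not in PodTOM podocytes. Its log2 fold change was 0.50 ± 0.62 in MyD88pko (adjusted p = 0.694, edgeR) and 1.10 ± 0.56 in PodTOM podocytes (adjusted p = 0.276, edgeR), and the difference between the transcripts was not tested. Dnajb1-202 therefore took 89.5% to 92.1% of the Dnajb1 count in nephritic MyD88pko libraries against 24.0% and 75.6% in untreated ones, and 79.2% to 89.9% in nephritic PodTOM libraries against 35.4% to 62.0% in untreated ones. The split between the transcripts rests on their 5' ends, since only 207 of the 31-base words of Dnajb1-202 and 349 of those of Dnajb1-201 occur in no other transcript. Reads that began in intron 1 of an unspliced Dnajb1-201 would be counted for Dnajb1-202 where they lie in its exon 1, and the share of such reads was not tested. The total of the gene does not depend on this split, because 3140 of its 3154 words occur in no other gene.

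**Figure D3:**
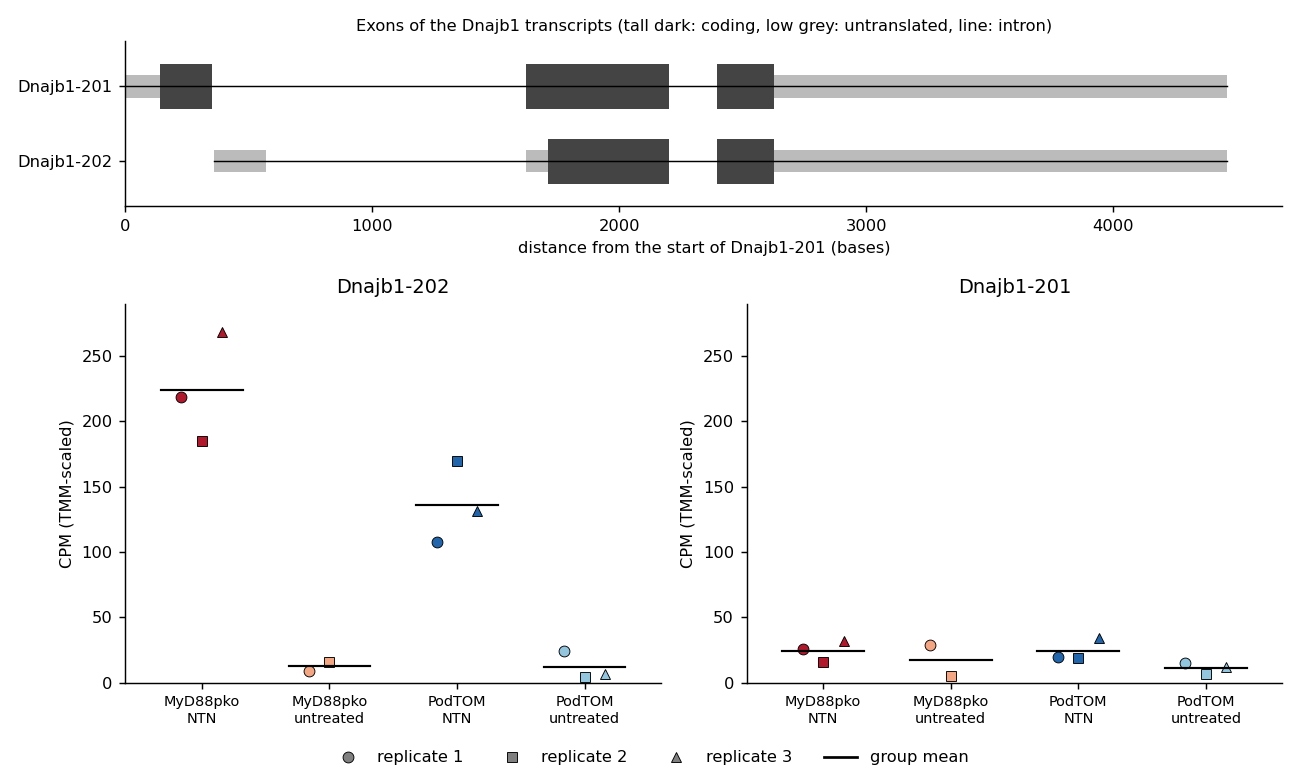
Top, exons of Dnajb1-201 and Dnajb1-202 by distance in bases from the start of Dnajb1-201. Bottom, CPM of each transcript in the 11 libraries, on the same linear axis, with the group mean as a line: Dnajb1-202 lies between 107 and 268 CPM in the 6 nephritic libraries and at most at 24.3 CPM in untreated ones, while Dnajb1-201 stays at or below 34.6 CPM in all 11.

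Hspa1a and Hspa1b, on the minus strand of chromosome 17 (34969190 to 34972156 and 34956436 to 34959238), encode the stress-inducible HSP70. They share 1873 words of 31 bases, and only 29.9% of those of Hspa1a and 31.9% of those of Hspa1b occur in no other gene, so the division of reads between them is uncertain. A stretch of their promoters is identical too. The stretch from 130 to 71 bases before the start (RefSeq, GRCm38.p6) is given because it carries GAANNTTC, 2 units of a heat shock element, in capitals. This motif, which is its own reverse complement, occurs in 7.86% of all 32851 RefSeq promoter windows (250 bases before to 50 after a start), and the windows of Hspa1a and Hspa1b hold no run of 3 or 4 units. It lies at chr17:34972227-34972286 for Hspa1a and chr17:34959309-34959368 for Hspa1b, minus strand, and its 60 letters are the same in both:
Hspa1a: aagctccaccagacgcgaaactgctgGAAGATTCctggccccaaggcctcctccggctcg
Hspa1b: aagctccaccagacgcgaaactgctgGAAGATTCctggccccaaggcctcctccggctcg

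Hspa1a had 48.1, 45.5 and 107 CPM in nephritic MyD88pko libraries against 139 and 138 CPM in untreated ones. In PodTOM podocytes it had 36.1, 81.5 and 54.3 CPM with NTN against 306, 103 and 242 CPM untreated. Nephritic libraries lay below untreated ones in each genotype. The log2 fold change was -1.05 ± 0.51 in MyD88pko podocytes (adjusted p = 0.164, edgeR) and -1.92 ± 0.47 in PodTOM podocytes (3.78-fold lower, adjusted p = 0.0169, edgeR). The call in PodTOM podocytes was lost without untreated replicate 1 (adjusted p = 0.0594), without nephritic replicate 1 (0.0517) or without nephritic replicate 3 (0.0554), with the direction kept. Hspa1b had 19.6, 19.7 and 49.998 CPM in nephritic MyD88pko libraries against 31.7 and 32.4 CPM untreated, which overlapped, and 9.37, 33.6 and 27.3 CPM in nephritic PodTOM libraries against 146, 34.3 and 78.1 CPM untreated. Its log2 fold change was -0.11 ± 0.71 in MyD88pko (adjusted p = 0.934) and -1.87 ± 0.65 in PodTOM podocytes (adjusted p = 0.0671, edgeR). DESeq2 called it in PodTOM podocytes (adjusted p = 0.0137). The 2 genes together, which avoids the division of shared reads, had 67.7, 65.2 and 157 CPM in nephritic MyD88pko libraries against 170.3 and 170.5 CPM untreated, and 45.4, 115 and 81.7 CPM in nephritic PodTOM libraries against 452, 137 and 320.4 CPM untreated.

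Hspa8 encodes the constitutive HSP70 (HSC70), which also strips clathrin from vesicles, and was with Hsp90ab1 the most abundant of the 10 per length, at 1090.2 ± 166 TPM in nephritic and 1132 ± 430.1 TPM in untreated MyD88pko podocytes. It had 944, 1048 and 1568 CPM in nephritic MyD88pko libraries against 1196 and 679 CPM untreated, and 952, 1255 and 1291 CPM in nephritic PodTOM libraries against 1779, 1137 and 1231 CPM untreated. The groups overlapped in each genotype, with log2 fold changes of 0.34 ± 0.27 in MyD88pko (adjusted p = 0.380) and -0.25 ± 0.24 in PodTOM podocytes (adjusted p = 0.472, edgeR). Hsph1, the HSP110 that exchanges nucleotide on HSP70, had 109, 99.3 and 197 CPM in nephritic MyD88pko libraries against 167 and 128 CPM untreated, and 91.8, 159 and 127 CPM in nephritic PodTOM libraries against 229, 150.4 and 186 CPM untreated. Its log2 fold change was -0.13 ± 0.29 in MyD88pko (adjusted p = 0.789) and -0.58 ± 0.26 in PodTOM podocytes (adjusted p = 0.113, edgeR). On the TPM scale limma called both genes lower in PodTOM podocytes, Hspa8 by -0.85 (adjusted p = 0.00840) and Hsph1 by -1.15 (adjusted p = 0.00798) on the log2(TPM + 1) scale, on which the median of all genes moved by -0.16 and not by 0.19.

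Of the HSP90 genes, Hsp90aa1 fell in PodTOM podocytes and Hsp90ab1 did not pass the test in either genotype. Hsp90aa1, the more inducible of the cytosolic HSP90 genes, had 402, 415 and 605 CPM in nephritic MyD88pko libraries against 653 and 555 CPM untreated. In PodTOM podocytes it had 328, 396 and 507 CPM with NTN against 788, 524 and 561 CPM untreated, with no overlap. The log2 fold change was -0.35 ± 0.23 in MyD88pko (adjusted p = 0.269, edgeR) and -0.61 ± 0.20 in PodTOM podocytes (1.52-fold lower, adjusted p = 0.0386, edgeR). The call was lost without untreated PodTOM replicate 1 (adjusted p = 0.132) or 3 (0.0525) and without nephritic PodTOM replicate 1 (0.132) or 2 (0.0839). It was also lost when only protein-coding transcripts were summed, where the log2 fold change was -0.34 (adjusted p = 0.19). Hsp90ab1, the constitutive HSP90, had 1033, 1019 and 1590.5 CPM in nephritic MyD88pko libraries against 1469 and 1149 CPM untreated, and 951, 1238 and 1357 CPM in nephritic PodTOM libraries against 2150.0, 1311 and 1453 CPM untreated. These overlapped, and its log2 fold changes were -0.11 ± 0.24 (adjusted p = 0.780) and -0.47 ± 0.22 (adjusted p = 0.115, edgeR).

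Hspd1 (HSP60) and Hspe1 (HSP10) encode the barrel and the lid of the mitochondrial chaperonin and lie head to head on chromosome 1, Hspd1 on the minus strand (55077835 to 55088243) and Hspe1 on the plus strand (55088132 to 55091307). The region between their main starts holds the longest heat shock element found in the promoter windows of the members, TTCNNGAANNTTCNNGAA. This run of 4 units, in either phase and read on both strands, was found in 8 of the 32851 promoter windows (0.0244%), and the Hspd1 and Hspe1 windows are 2 of these 8. It is shown as the 30 bases from 95 to 66 before the start of Hspe1, at chr1:55088053-55088082 on the plus strand, with the element in capitals. They lie within an exon of the minor transcript Hspd1-202:
Hspe1: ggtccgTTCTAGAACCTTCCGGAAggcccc

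The 2 genes that share this region differed in NTN. Hspe1 had 30.3, 33.9 and 43.7 CPM in nephritic MyD88pko libraries against 18.3 and 14.5 CPM untreated. In PodTOM podocytes it had 18.4, 19.2 and 29.0 CPM with NTN against 18.8, 17.9 and 17.7 CPM untreated. The MyD88pko groups did not overlap, and the PodTOM groups did. The log2 fold change was 1.13 ± 0.25 in MyD88pko (2.19-fold, adjusted p = 0.00601, edgeR) and 0.29 ± 0.22 in PodTOM podocytes (adjusted p = 0.340, edgeR). Without untreated MyD88pko replicate 2 the adjusted p in MyD88pko podocytes was 0.102. Hspd1 had 99.6, 93.7 and 130.2 CPM in nephritic MyD88pko libraries against 131 and 114 CPM untreated, and 82.9, 84.8 and 100.2 CPM in nephritic PodTOM libraries against 164, 116 and 124 CPM untreated. Only the PodTOM groups stood apart. Its log2 fold change was -0.18 ± 0.19 in MyD88pko (adjusted p = 0.513, edgeR) and -0.59 ± 0.17 in PodTOM podocytes (1.5-fold lower, adjusted p = 0.0201, edgeR). That call was lost without untreated PodTOM replicate 1 (adjusted p = 0.0644) and without nephritic PodTOM replicate 1 (0.0605) or 2 (0.0533).

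The ratio of Hspe1 to Hspd1, taken on the TPM scale within a library and so free of the scaling between libraries, was 1.08, 1.28 and 1.19 in nephritic MyD88pko libraries against 0.428 and 0.380 in untreated ones. It was 0.757, 0.754 and 1.02 in nephritic PodTOM libraries against 0.321, 0.508 and 0.425 in untreated ones. Each nephritic library stood above each untreated library. This ratio was chosen after the values of both genes were seen and is given without a test. The transcripts of the 2 genes overlap at their starts (55088132 to 55088243), and the counting did not use strand, so reads from that overlap cannot be assigned to one of them.

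**Figure D4:**
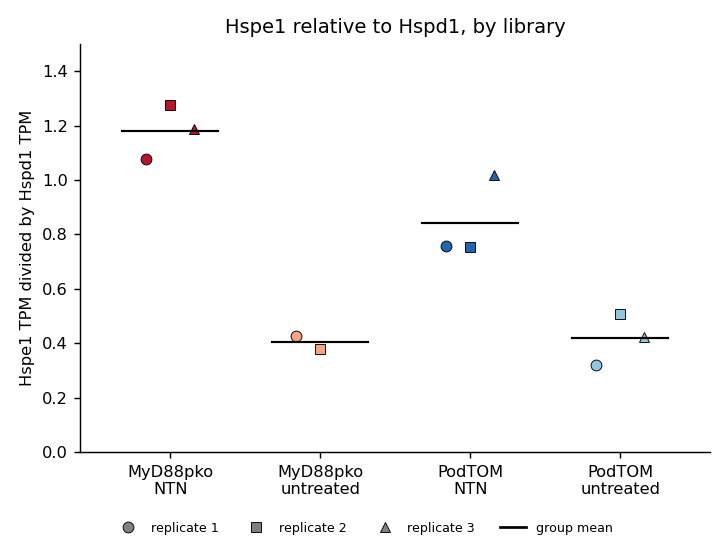
Hspe1 TPM divided by Hspd1 TPM in each library (linear axis from 0), by group, with the group mean as a line. The 6 nephritic libraries lie between 0.754 and 1.28 and the 5 untreated libraries between 0.321 and 0.508.

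Hspb1, on the plus strand of chromosome 5 (135887919 to 135889563), encodes the small heat shock protein HSP25 (HSP27 in human), which binds unfolded clients and actin. Its promoter window holds GAANNTTC at 2 places, which are shown in capitals in the stretch from 130 to 71 bases before the start (chr5:135887789-135887848, RefSeq, GRCm38.p6). As in Hspa1a, no longer run was found:
Hspb1: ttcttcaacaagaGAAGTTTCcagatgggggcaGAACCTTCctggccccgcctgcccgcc

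Hspb1 had 39.2, 28.7 and 66.3 CPM in nephritic MyD88pko libraries against 13.7 and 14.3 CPM untreated. In PodTOM podocytes it had 35.2, 56.5 and 68.2 CPM with NTN against 65.6, 28.0 and 24.5 CPM untreated. The MyD88pko groups did not overlap, whereas untreated PodTOM replicate 1 lay among the nephritic libraries. The log2 fold change was 1.68 ± 0.47 in MyD88pko (3.20-fold, adjusted p = 0.0281, edgeR) and 0.44 ± 0.39 in PodTOM podocytes (adjusted p = 0.43, edgeR). The call in MyD88pko podocytes was lost without untreated replicate 1 (adjusted p = 0.181) or 2 (0.189) and without nephritic replicate 1 (0.0549). Hspb1 shares words with its pseudogene and with Gm9817, and the pseudogene held at most 1.42% of its CPM. Gm9817, annotated as protein-coding, averaged 0.956 CPM in untreated MyD88pko podocytes beside 14.0 CPM of Hspb1, and 1.23 beside 44.7 CPM with NTN. Only 44.6% of the words of Hspb1 occur in no other gene. That share was 48.2% for Hspd1, 48.5% for Hsp90aa1 and 59.5% for Hspa8, whose pseudogenes held at most 2.60%, 0.556% and 0.910% of their CPM.

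The promoter windows of the other genes were searched in the same way. Those of Hsph1 hold TTCNNGAA before the start and a run of 3 units (GAANNTTCNNGAA or TTCNNGAANNTTC, 0.603% of all windows) after it. Neither of the 2 windows of Dnajb1, of which 1 starts near Dnajb1-202, holds GAANNTTC, TTCNNGAA (8.52% of all windows) or a longer run, which says only that these letters are not in those 300 bases. The RefSeq table has no window for Hspa8, Hsp90aa1 and Hsp90ab1.

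Below the level of the gene, 38 transcripts of the members were tested. In NTN 2 were higher and 3 lower in MyD88pko podocytes, and 1 was higher and 6 were lower in PodTOM podocytes (edgeR, adjusted p under 0.05), where 2.6% and 3.09% of all transcripts tested were higher and 1.7% and 2.34% lower. The higher ones were Dnajb1-202 and, in MyD88pko podocytes, Hspe1-201 (log2 fold change 1.66 ± 0.25, adjusted p = 0.00635, edgeR). Of the lower ones, several were minor transcripts of abundant genes annotated as retained introns, which keep intron sequence. Hsp90aa1-206 had 5.80, 5.32 and 3.74 CPM in nephritic MyD88pko libraries against 43.6 and 44.7 CPM untreated, and 12.2, 3.46 and 4.61 CPM in nephritic PodTOM libraries against 137, 42.8 and 69.0 CPM untreated. It was lower by log2 fold changes of -3.16 ± 0.57 (adjusted p = 0.0144) and -3.62 ± 0.55 (adjusted p = 0.00657, edgeR). Hspa8-204 had 2.99, 2.06 and 3.57 CPM in nephritic MyD88pko libraries against 32.2 and 29.2 CPM untreated, and 2.70, 2.95 and 4.89 CPM in nephritic PodTOM libraries against 87.8, 21.8 and 30.0 CPM untreated. Its log2 fold changes were -3.41 ± 0.55 (adjusted p = 0.00790) and -3.72 ± 0.53 (adjusted p = 0.00425, edgeR). Neither transcript overlapped between NTN and untreated libraries. Hsp90aa1-204, also a retained intron, fell in PodTOM podocytes (log2 fold change -2.03 ± 0.51, adjusted p = 0.0479, edgeR). Hsph1-205, annotated as protein-coding, fell in MyD88pko (-2.90 ± 0.60, adjusted p = 0.0254) and in PodTOM podocytes (-2.80 ± 0.56, adjusted p = 0.0202, edgeR). The other lower transcripts in PodTOM podocytes were Hspa1a-201 (-1.83 ± 0.46, adjusted p = 0.0468) and Hspa8-209 (adjusted p = 0.0387, edgeR). Hspa8-209 had 0, 0.157 and 0.369 CPM in nephritic PodTOM libraries against 0, 101 and 101 CPM untreated, so 1 untreated library lay with the nephritic ones, and only 29 of its words occur in no other transcript. The same count was 19 for Hspa8-204, 11 for Hsp90aa1-204 and 129 for Hsp90aa1-206, so the calls of Hspa8-204 and Hsp90aa1-204 also rest on few words.

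Of the 14 retained-intron transcripts of the members that were tested, 11 had a negative log2 fold change in MyD88pko and 13 in PodTOM podocytes, against 55.0% and 49.1% of all 13596 retained-intron transcripts tested. Of those 14, 2 passed the threshold in MyD88pko and 3 in PodTOM podocytes, all lower, where 2.46% and 1.89% of all retained-intron transcripts were lower and 0.875% and 2.09% higher. As a share of the gene's estimated count, these transcripts held 2.99% ± 0.350 of Hsp90aa1 in nephritic against 12.4% ± 1.82 in untreated MyD88pko podocytes, and 4.51% ± 1.56 in nephritic against 18.8% ± 4.24 in untreated PodTOM podocytes (SD, n = 3, 2, 3 and 3). For Hsph1 the shares were 14.2% ± 1.25 against 36.5% ± 3.85 in MyD88pko and 18.5% ± 3.78 against 30.5% ± 4.18 in PodTOM podocytes, and for Hspa8 3.39% ± 1.01 against 9.28% ± 1.78 and 3.78% ± 0.653 against 7.05% ± 0.192. For Hsp90ab1 they were 5.21% ± 0.502 against 12% ± 1.81 in MyD88pko and 5.19% ± 2.42 against 8.34% ± 0.652 in PodTOM podocytes, and for Hspe1 7.71% ± 1.84 against 24.6% ± 9.32 and 8.08% ± 1.89 against 13.4% ± 8.49. The nephritic libraries lay below the untreated ones without overlap in 5 of these 5 genes in MyD88pko podocytes, where 29.5% of 8065 genes with such transcripts did so and 11.8% lay above. In PodTOM podocytes this held for 3 of 5, and not for Hsp90ab1 and Hspe1, where 11.6% of the 8065 genes lay below and 12.2% above. Over all genes the share was 9.41% ± 0.701 in nephritic against 12% ± 0.00259 in untreated MyD88pko podocytes, and 10.6% ± 0.365 against 11% ± 0.380 in PodTOM podocytes. The part of this shift over all genes in the shares of single genes was not tested. Among protein-coding transcripts, Hsp90aa1-201 and Hsp90aa1-202 went in opposite directions in PodTOM podocytes without passing the threshold, with log2 fold changes of -0.70 ± 0.27 (adjusted p = 0.168) and 0.49 ± 0.19 (adjusted p = 0.176, edgeR).

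**Figure D5:**
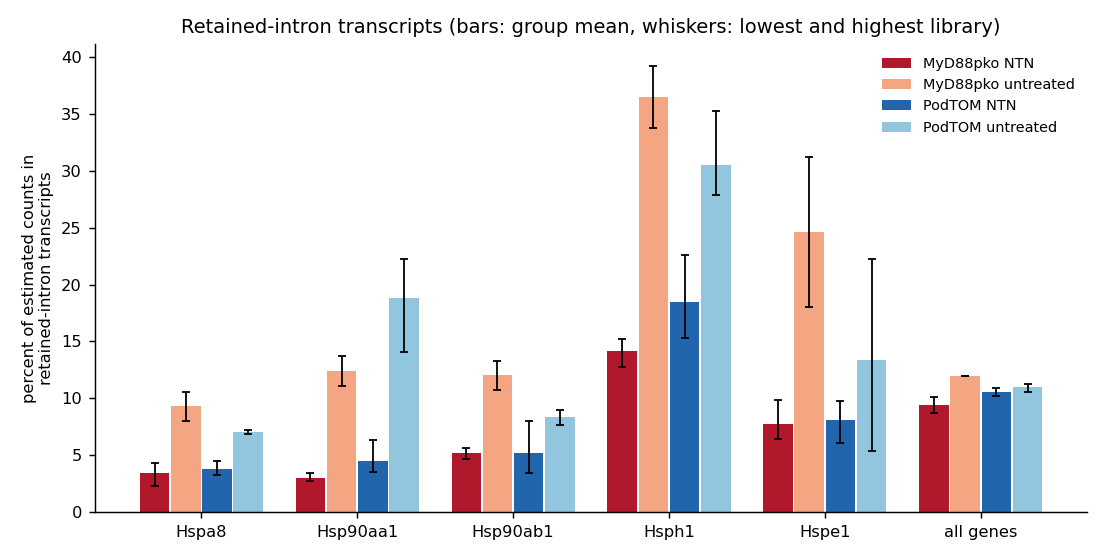
Percent of a gene's estimated counts held by its retained-intron transcripts, for 5 chaperone genes and for all genes summed, with the group mean as a bar and the lowest and highest library as whiskers. In Hsp90aa1 the group means are 2.99% and 4.51% with NTN and 12.4% and 18.8% untreated, while over all genes they range from 9.41% to 12%.

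Between genotypes, 0 of 10 members passed the threshold in NTN and 0 of 10 in untreated podocytes (edgeR, and also DESeq2), where 0.0613% and 0.0189% of all genes tested were called. In each of these comparisons 1 member had an unadjusted edgeR p under 0.05. In NTN this was Hspe1, with 30.3, 33.9 and 43.7 CPM in MyD88pko against 18.4, 19.2 and 29.0 CPM in PodTOM libraries, which did not overlap. No other member differed without overlap there, and 5.29% of all genes tested were higher and 7.36% lower in nephritic MyD88pko libraries without overlap. Hspe1 had a log2 fold change of 0.70 ± 0.22 (unadjusted p = 0.00516, adjusted p = 0.452, edgeR). In untreated podocytes it was Hspb1, with 13.7 and 14.3 CPM in MyD88pko against 65.6, 28.0 and 24.5 CPM in PodTOM libraries. Its log2 fold change was -1.49 ± 0.47 (unadjusted p = 0.00820, adjusted p = 0.690, edgeR). Hspb1 and Hspa1b were lower in untreated MyD88pko libraries without overlap and 0 members higher, where 8.5% of all genes tested were lower and 9.48% higher in this way. Across the 10 genes the log2 fold changes between genotypes ran from -0.25 to 0.70 in NTN and from -1.49 to 0.40 in untreated podocytes, with standard errors of up to 0.64 and 0.75. The difference between the NTN responses (MyD88pko minus PodTOM) was called for 0 of 10 members by edgeR and 0 by DESeq2, where 0.00472% of all genes tested were called by edgeR. The difference was positive for all 10, from 0.13 ± 0.57 for Dnajb1 to 1.77 ± 0.97 for Hspa1b. The median of the members was 0.52, against 0.0033 over all genes tested. The share of all genes with a positive difference was not counted. The members varied together among libraries, as described below, so their signs are not separate observations. Among them 1 member, Hspe1, had an unadjusted p under 0.05 (0.84 ± 0.33, unadjusted p = 0.0212, adjusted p = 0.774, edgeR). With 0 of 10 differences called, the calls in 1 genotype and not in the other are not shown to differ between genotypes.

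The members also varied together among libraries of 1 group. Untreated PodTOM replicate 1 was the highest of its group in all 10 genes, nephritic PodTOM replicate 1 the lowest of its group in all 10 and nephritic MyD88pko replicate 3 the highest of its group in all 10. The TMM factors of these libraries were 0.894, 1.07 and 0.925, the lowest, highest and lowest of their groups. Nephritic MyD88pko replicate 3 was also highest of its group for podocyte markers (48158 CPM). It was highest too for chaperones of the endoplasmic reticulum (4514 CPM), but not for endothelial markers (175 CPM). Nephritic PodTOM replicate 1 was lowest for the latter chaperones (3167 CPM) and not for podocyte markers. The share of all genes with such ranks was not counted. Nephritic PodTOM replicate 1 had the most vomeronasal signal of the 11 libraries (474.7 CPM) and nephritic MyD88pko replicate 3 the least of the nephritic ones (130.5 CPM). Without the 3 nephritic libraries with most of this signal, which leaves 1 nephritic MyD88pko and 2 nephritic PodTOM libraries, Dnajb1 was the only member called in PodTOM podocytes. Over the 11 libraries the log2 CPM of Hsp90aa1 and Hspd1 had a Pearson correlation of 0.96 and that of Hsp90ab1 and Hsph1 of 0.93, while that of Dnajb1 and Hspa1a was -0.65. The 11 libraries fall into 4 groups, were scaled together and differ in depth, so the correlations only describe them.

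Immediate early genes, which cell isolation at 37 °C is known to induce as it does heat shock genes, had lower sums in NTN. Hspa1a, Hspa1b, Hsp90aa1, Hsp90ab1, Hsph1 and Hspd1 had negative log2 fold changes in both genotypes, called or not. Those of Dnajb1, Hspb1 and Hspe1 were positive in both. Hspa8 was positive in MyD88pko and negative in PodTOM podocytes, not called in either. The 22 immediate early genes summed to 12065 to 17094 CPM in nephritic against 18759 to 19885 CPM in untreated MyD88pko libraries. In PodTOM libraries they summed to 7158 to 12979 CPM in nephritic against 16510 to 22867 CPM in untreated ones. Of the 22, 1 was higher and 7 lower in MyD88pko podocytes, and 1 was higher and 11 were lower in PodTOM podocytes (edgeR, adjusted p under 0.05). These are 4.55% and 31.8% of the list in MyD88pko, where 11.3% and 8.22% of all genes tested were higher and lower, and 4.55% and 50% in PodTOM podocytes, where 15.9% and 9.93% were. Fos, a subunit of the transcription factor AP-1, averaged 773 ± 212 CPM in nephritic and 2590 ± 119 CPM in untreated PodTOM podocytes (SD, n = 3 each, log2 fold change -1.74, adjusted p = 1.1e-05, edgeR). The highest of the untreated sums was that of PodTOM replicate 1 (22867 CPM), the library that was highest of its group in the 10 chaperone genes. In NTN, PodTOM replicate 1 had the lowest and MyD88pko replicate 3 the highest sum of their groups, as in the chaperone genes. Among other untreated libraries the orders differed. PodTOM replicate 2 had a higher sum than replicate 3 (19075 against 16510 CPM) but was lowest of its group in 8 of the 10. MyD88pko replicate 2 had the higher sum of its group (19885 against 18759 CPM) and was also lowest in 8 of the 10. The part of cell isolation in the chaperone levels was not tested.

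Genes that work with the 10 members were counted by list. Of 23 cochaperones and heat shock factors, 3 were higher and 2 lower in MyD88pko podocytes with NTN, and 1 was higher and 3 were lower in PodTOM podocytes, with median log2 fold changes of 0.09 and -0.22. Of the list, 13.0% were thus higher and 8.70% lower in MyD88pko podocytes, near the 11.3% and 8.22% of all genes tested, and 4.35% higher and 13.0% lower in PodTOM podocytes, where 15.9% and 9.93% of all genes were. Hsbp1, which binds HSF1, rose in MyD88pko (131 ± 31.1 against 66.4 ± 9.12 CPM, adjusted p = 0.00432) and in PodTOM podocytes (111 ± 14.8 against 53.7 ± 6.76 CPM, adjusted p = 0.000774, edgeR). Bag4, a nucleotide exchange factor of HSP70, fell in MyD88pko (15.6 ± 3.28 against 27.7 ± 0.793 CPM, adjusted p = 0.0194) and in PodTOM podocytes (14.0 ± 1.57 against 24.3 ± 2.19 CPM, adjusted p = 0.0116, edgeR). Ptges3 and Chordc1, which bind HSP90, fell in PodTOM podocytes by 0.58 and 0.49 on the log2 scale (adjusted p = 0.0139 and 0.0410, edgeR).

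Of 24 other HSP70, HSP110 and J-domain genes, 0 were higher and 2 lower in MyD88pko podocytes, and 1 was higher and 8 were lower in PodTOM podocytes. The share of the list that was lower was 8.33% in MyD88pko podocytes, near the 8.22% of all genes tested, and 33.3% in PodTOM podocytes, against 9.93% of all genes. The share higher was 0% in MyD88pko and 4.17% in PodTOM podocytes, below the 11.3% and 15.9% of all genes. Hspa4 and Hspa4l, HSP110 relatives of Hsph1, averaged 176 ± 11 and 84.4 ± 20.5 CPM in nephritic against 273 ± 11.3 and 148 ± 25.5 CPM in untreated PodTOM podocytes (adjusted p = 0.00927 and 0.00914, edgeR). Dnajc5, the J-domain protein of secretory vesicles, and Hspa12a fell in MyD88pko (-0.65 and -0.57, adjusted p = 0.00911 and 0.0371) and in PodTOM podocytes (-0.69 and -0.75, adjusted p = 0.00259 and 0.00435, edgeR).

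Of 7 tested genes listed here as small heat shock proteins besides Hspb1, 2 were higher in MyD88pko and 3, with Hspb11 among them, in PodTOM podocytes. Of all genes tested 11.3% and 15.9% were higher. Of the list 0 were lower, where 8.22% and 9.93% of all genes were. Cryab (αB-crystallin), which forms mixed oligomers with HSPB1 and binds intermediate filaments, averaged 445 ± 75.3 CPM in nephritic against 115 ± 0.764 CPM in untreated MyD88pko podocytes (n = 3 and 2) and 361 ± 16.1 CPM in nephritic against 126 ± 16.2 CPM in untreated PodTOM podocytes (n = 3 each). Its log2 fold changes were 1.96 ± 0.18 (adjusted p = 7.5e-06) and 1.52 ± 0.15 (adjusted p = 8.0e-06, edgeR). Hspb2, at a low level, rose, with 5.69 ± 1.61 CPM in nephritic against 0.457 ± 0.457 CPM in untreated MyD88pko podocytes (adjusted p = 0.00271, edgeR) and 5.63 ± 2.03 against 1.31 ± 0.767 CPM in PodTOM podocytes (adjusted p = 0.0112, edgeR). Hspb11 rose in PodTOM podocytes (12.9 ± 4.42 against 6.32 ± 1.21 CPM, adjusted p = 0.0457, edgeR).

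The remaining lists are read against the same shares of all genes tested, 11.3% higher and 8.22% lower in MyD88pko and 15.9% higher and 9.93% lower in PodTOM podocytes. In the mitochondrial list, 1 of 15 chaperones and proteases was higher and 0 lower in MyD88pko podocytes, and 0 were higher and 3 lower in PodTOM podocytes, which is 6.67% higher in MyD88pko and 20% lower in PodTOM podocytes. Dnajc15, a J-domain protein of the inner membrane, rose in MyD88pko podocytes (7.47 ± 1.77 against 3.27 ± 0.946 CPM, adjusted p = 0.0484, edgeR), and Dnaja3, Grpel2 and Clpx fell in PodTOM podocytes by 0.74, 0.66 and 0.54 on the log2 scale (adjusted p = 0.0166, 0.0388 and 0.0489, edgeR). Of 14 genes of TRiC, the cytosolic chaperonin, and prefoldin, which hands actin and tubulin to it, 2 were higher in MyD88pko (14.3% of the list), and 2 were higher (14.3%) and 1 lower (7.14%) in PodTOM podocytes. Pfdn5, a prefoldin subunit, rose in MyD88pko (68.2 ± 12.4 against 21 ± 1.06 CPM, adjusted p = 0.000112) and in PodTOM podocytes (52.1 ± 3.30 against 19.5 ± 4.2 CPM, adjusted p = 9.5e-05, edgeR). Cct5 rose in MyD88pko (0.58, adjusted p = 0.0303, edgeR) and Cct8 fell in PodTOM podocytes (-0.58, adjusted p = 0.00790, edgeR), and Pfdn4 rose in PodTOM podocytes (1.17, adjusted p = 0.0142, edgeR). Of 15 chaperones of the endoplasmic reticulum, 1 was higher in MyD88pko (6.67%), and 1 was higher (6.67%) and 3 were lower (20%) in PodTOM podocytes. P4hb, a protein disulfide isomerase, rose in MyD88pko (287 ± 53.1 against 171 ± 15.4 CPM, adjusted p = 0.00736) and in PodTOM podocytes (234 ± 11.2 against 171 ± 15.5 CPM, adjusted p = 0.0369, edgeR), while Pdia3, Pdia4 and Dnajb9 fell in PodTOM podocytes by 0.72, 0.46 and 0.72 on the log2 scale (adjusted p = 0.00790, 0.0426 and 0.0489, edgeR).

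Among 9341 other genes that averaged 10 CPM or more, those whose log2 CPM over the 11 libraries was most like the mean of the 10 members were Cacybp (r = 0.92), St13 (0.91), Prmt1 (0.90), Rabgef1 (0.90) and Unc119b (0.89). St13 is itself a cochaperone of HSP70. The least like were Cenpw (-0.97), Gm48800 (-0.93), Mmp12 (-0.93), Zfp661 (-0.92) and Ltbp1 (-0.92). These are the extremes of many genes over 11 libraries, and are given as a description.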

How the data were processed

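The authors used cutadapt to trim the reads, kallisto to assign them to Ensembl transcripts (mm10/GRCm38) and sleuth for their own tests, which were not used here. The deposited tables hold an estimated count and an effective length per transcript and library (1 of the columns, TPM, was recomputed here from both). RNA had been amplified before library preparation with a kit that does not mark strand, so overlapping genes cannot be separated by strand. Of 109282 transcripts, 107987 matched GENCODE M21, which gave genes, names and coordinates, and 1295 were left out. Estimated counts were summed over 34547 genes and rounded. Genes were kept by filterByExpr (minimum count 10), scaled by TMM and tested with edgeR 4.0.16 in R 4.3.3 (robust quasi-likelihood F test, 1 coefficient for each of 4 groups, 5 comparisons), with Benjamini-Hochberg adjustment over all genes tested and a threshold of 0.05. Transcripts were tested likewise. The fits were tested on simulated data. Shared words are 31-mers, counted over all transcripts of the annotation, with at least 100 shared words needed to name a pseudogene. Promoter windows are from RefSeq (GRCm38.p6). Further steps used Python 3.11.15.

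The 10 members and the gene lists were chosen with earlier results of these data known. Besides the members, the genes named are, of each list, up to 4 with the smallest adjusted p under 0.05 for NTN in PodTOM podocytes and up to 2 in each other comparison, and the 5 most and 5 least like the members. Alternatives were DESeq2 1.42.0, limma 3.58.1 on log2(TPM + 1) and log2(TPM + 0.1), other scalings and filters, and leaving out each library. Pseudogenes added to the members, only protein-coding transcripts and the removal of 3 libraries were chosen after seeing the data. The smallest library has 14563271 estimated counts, which limits the low transcripts more than the genes.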

Additional observations from a re-analysis of the deposited data

How the results depend on the processing

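No paired analysis was possible because the labels give no replicate numbers, and the numbers used here follow accession order. The 4 members called in PodTOM podocytes became 8 (1 higher, 7 lower) with limma on log2(TPM + 1) or log2(TPM + 0.1), and 1 without the 3 nephritic libraries with most vomeronasal signal. Leaving out 1 library at a time gave 1 to 6, with 1 without untreated PodTOM replicate 1 or nephritic PodTOM replicate 1 and 2 without nephritic PodTOM replicate 2. The 3 called in MyD88pko podocytes became 5 with limma at either pseudocount and 1 to 4 without single libraries, with 1 without untreated MyD88pko replicate 2, where the lone library is assumed to vary like the other groups. With no filter on low counts, 2 members were called lower in untreated MyD88pko against PodTOM podocytes and 2 had a larger NTN response in MyD88pko podocytes, against 0 for each. Transcripts called in MyD88pko podocytes numbered 11 at a mean of at least 5 CPM, against 5. The cause of these shifts was not tested.

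Signs turned only in log2 fold changes that were not called. In MyD88pko podocytes with NTN, Hspa1b was 0.0029 at a mean of at least 5 CPM and Hsp90ab1 0.027, Hspa8 was -0.012 with limma at either pseudocount, and Hsph1 was 0.23 with protein-coding transcripts only. Without the 3 libraries Hspa1b was 0.68, Hsp90aa1 0.042, Hsp90ab1 0.32, Hsph1 0.46 and Hspd1 0.13, and Hspb1 between genotypes in NTN 0.12. Leaving out 1 library at a time, the MyD88pko values with NTN ran from -0.71 to 0.12 for Hspa1b, -0.011 to 0.81 for Hspa8, -0.35 to 0.080 for Hsp90ab1 and -0.50 to 0.076 for Hsph1. Between untreated genotypes they ran from -0.090 to 0.98 for Dnajb1 and -0.33 to 0.015 for Hspe1, and the difference of the NTN responses from -0.44 to 0.62 for Dnajb1.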
